A study of Mus musculus with 16 samples.

Results

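Cultured mouse cortical astrocytes were exposed to secreted Klotho or to vehicle, and their transcripts were measured on 8 one-colour expression arrays, 4 per treatment. These are 8 of the 16 arrays of the study, chosen as those whose scanner file belongs to a sample titled as a cortical astrocyte culture, and the treatment of each array was taken from that sample. The other 8 arrays hold cortical neuron cultures from C57BL/6 embryos of day 16, treated at 14 days in vitro, and serve here only for the test of a difference between cell types. Both astrocyte groups were primary cultures from cortices of newborn C57BL/6 mice of postnatal day 0 to 5, freed of meninges and grown with serum. The developmental stage field of the same samples gives embryonic day 16, which conflicts with that protocol. Flasks were shaken for 15 h, and the labels state a purity above 98%. The Klotho group received 1 nM recombinant secreted Klotho and the control group phosphate-buffered saline, each for 24 h. Nothing in the labels ties the 4 arrays of a group to different cultures, so a p-value below measures only how far these samples scatter, and that scatter may be technical.

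Klotho is a membrane protein made mainly in kidney and choroid plexus, and its shed ectodomain circulates. Together with an FGF receptor it binds the hormone FGF23 and signals through the ERK kinases. Astrocytes convert much of their glucose to lactate, and the series title concerns Klotho and this aerobic glycolysis. Astrocytes also answer cytokines and microbial products through NF-kappaB, a family of transcription factors held in the cytoplasm by IkappaB proteins, and through interferons, whose receptors activate the STAT and IRF factors. The first of these systems induces cytokines, chemokines, adhesion molecules and its own inhibitors, and the second induces antiviral and antigen presentation genes.

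The deposit groups the astrocyte arrays in 2 ways that disagree. By scanner file, the grouping used here unless stated, all controls lay on slide 2 and all Klotho arrays on slide 3, so treatment and slide cannot be told apart. A value table deposited with the series has 1 column per sample, and the numbers of each column identify the scanner array behind it, with a largest gap of 0.005019 score units against 1.67 or more for the next best array. All 8 neuron columns hold their own sample's array, whereas 2 of the 8 astrocyte columns do and 6 hold another astrocyte array, 4 of them from the other treatment. By value table each slide carried 2 arrays of each treatment, with controls in slide column 3 and Klotho in column 4. The disputed arrays are control 2, control 4, Klotho 1 and Klotho 3 in the numbering by scanner file, and control 1, control 3, Klotho 2 and Klotho 4 have the same treatment in both. The short description of 7 astrocyte samples ends in a letter. Counted through the alphabet in rows of 4, that letter gives the slide column of the array in 4 of 7 samples by scanner file and in 7 of 7 by value table. The main results are therefore given by scanner file with the value by value table, and for some the value over the 4 undisputed arrays, beside them. These 3 values share arrays, and the difference over the undisputed arrays is by construction the sum of the other two.

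A level below is the log2 processed intensity of a probe minus the 75th percentile of its array, so that 0 marks a probe at that percentile and each unit a doubling. A difference is the mean level of the 4 Klotho arrays minus that of the 4 control arrays, with the standard error from limma, a linear model fitted to every gene with array row as a term. Spots well above background made up 61.9% to 66.8% of transcript spots on control arrays and 57.5% to 67.3% on Klotho arrays, and no spot was saturated (0 on each array). The 75th percentile itself ran from 1059 to 1289 intensity units on control arrays and from 634 to 1508 on Klotho arrays. Row 1 or 2 of the slide, which is balanced over the treatments, took 51.5% of the variation of genes around their means, treatment with slide 14.2% and slide column 9.37%. With row in the model the median standard error fell from 0.325 to 0.208. The number of arrays limits the precision.

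The cultures carried transcripts of astrocytes and of several other cell types. All 9 astrocyte markers were measured, with a mean level of 3.93 to 4.67 on control arrays and 4.16 to 4.78 on Klotho arrays. Gfap, the intermediate filament gene of astrocytes, was at 6.38, 6.26, 5.37 and 5.81 on control arrays 1 to 4 and at 6.67, 6.45, 6.04 and 5.85 on Klotho arrays 1 to 4. The groups overlapped, and the difference of 0.29 ± 0.16 (SE) did not pass the test (limma, adjusted p = 0.509). Of 16 microglia markers all were measured, with a mean level of 2.30 to 2.80 on control arrays and 1.93 to 2.58 on Klotho arrays, and 15 of the 16 were above background on all 8 arrays. Transcripts of microglia, the brain's macrophages, were thus measured on every array. Oligodendrocyte lineage markers (14 of 16 measured) had mean levels of -0.17 to 0.49 and -0.80 to 0.12, and neuron markers (7 of 12) -0.61 to -0.35 and -0.44 to 0.12. The glutamate transporter genes of neurons Slc17a7 and Slc17a6 were above background on 0 and 1 of the 8 arrays. Of 10 endothelial and mural markers 5 were tested, and these 5 were above background on all 8 arrays. Of those not tested, Cldn5 and Tek were so on 0 arrays, and Cdh5 on 2 control and 3 Klotho arrays. Of 12 meningeal fibroblast markers 8 were tested, and all 8 were above background on all 8 arrays. Of 10 ependymal and choroid plexus markers 9 were tested, and 8 of them were so. On arrays of whole cultures, fewer cells of a type and less RNA per cell cannot be told apart.

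No gene passed the test between Klotho and control in astrocytes. Of 23559 units tested, 15319 carried a gene symbol and the others were probes without one, and all are called genes in this text. Among them limma called 0 higher and 0 lower (0% each) at an adjusted p below 0.05, and the smallest adjusted p was 0.385. At an unadjusted p below 0.05, 1285 genes (5.45%) were on the higher side and 1332 (5.65%) on the lower. The median difference over all genes was -0.01. Among the 43 gene lists examined, the 8 with the highest medians were CXC chemokines, cytokines, inducible effectors, CC chemokines, adhesion molecules, NF-kappaB inhibitors, interferon response genes and NF-kappaB subunits, with medians from 1.12 to 2.67. The same 8 medians ran from 0.72 to 2.27 by value table and from 2.09 to 4.44 over the undisputed arrays. A gene could be tested through 1 group alone, so members that only the Klotho arrays measured had to differ, and 9 of the 13 cytokine, 6 of the 9 CXC and 10 of the 11 CC genes tested were above background on all 8 arrays. Single arrays moved several of these medians: without Klotho 3, without Klotho 2 and without Klotho 4 the cytokine median was 4.52, 1.70 and 1.75, and the CC median 2.85, 1.21 and 1.08. Over all arrays left out in turn, the ranges were 1.93 to 3.60 for CXC chemokines, 1.16 to 2.68 for effectors, 0.92 to 2.01 for adhesion molecules, 0.77 to 1.75 for NF-kappaB inhibitors, 0.91 to 1.68 for interferon genes and 0.72 to 1.55 for NF-kappaB subunits. Leaving out Klotho 3, a disputed array, gave 50 calls, 45 higher and 5 lower, and leaving out control 3 or control 4 gave 1 each. A fit over all 16 arrays, which takes the spread from both cell types, called 35 genes higher (0.149%) and 11 lower (0.0467%) in astrocytes. A call in that fit does not rest on the astrocyte spread alone, and whether the spread is equal in both cell types was not tested. The 4 undisputed arrays alone gave 299 higher (1.2%) and 11 lower (0.0442%) of 24879 genes, with only 1 residual degree of freedom per gene. The value table grouping called 0 genes, with 1572 (6.66%) at an unadjusted p below 0.05.

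**Figure D1:**
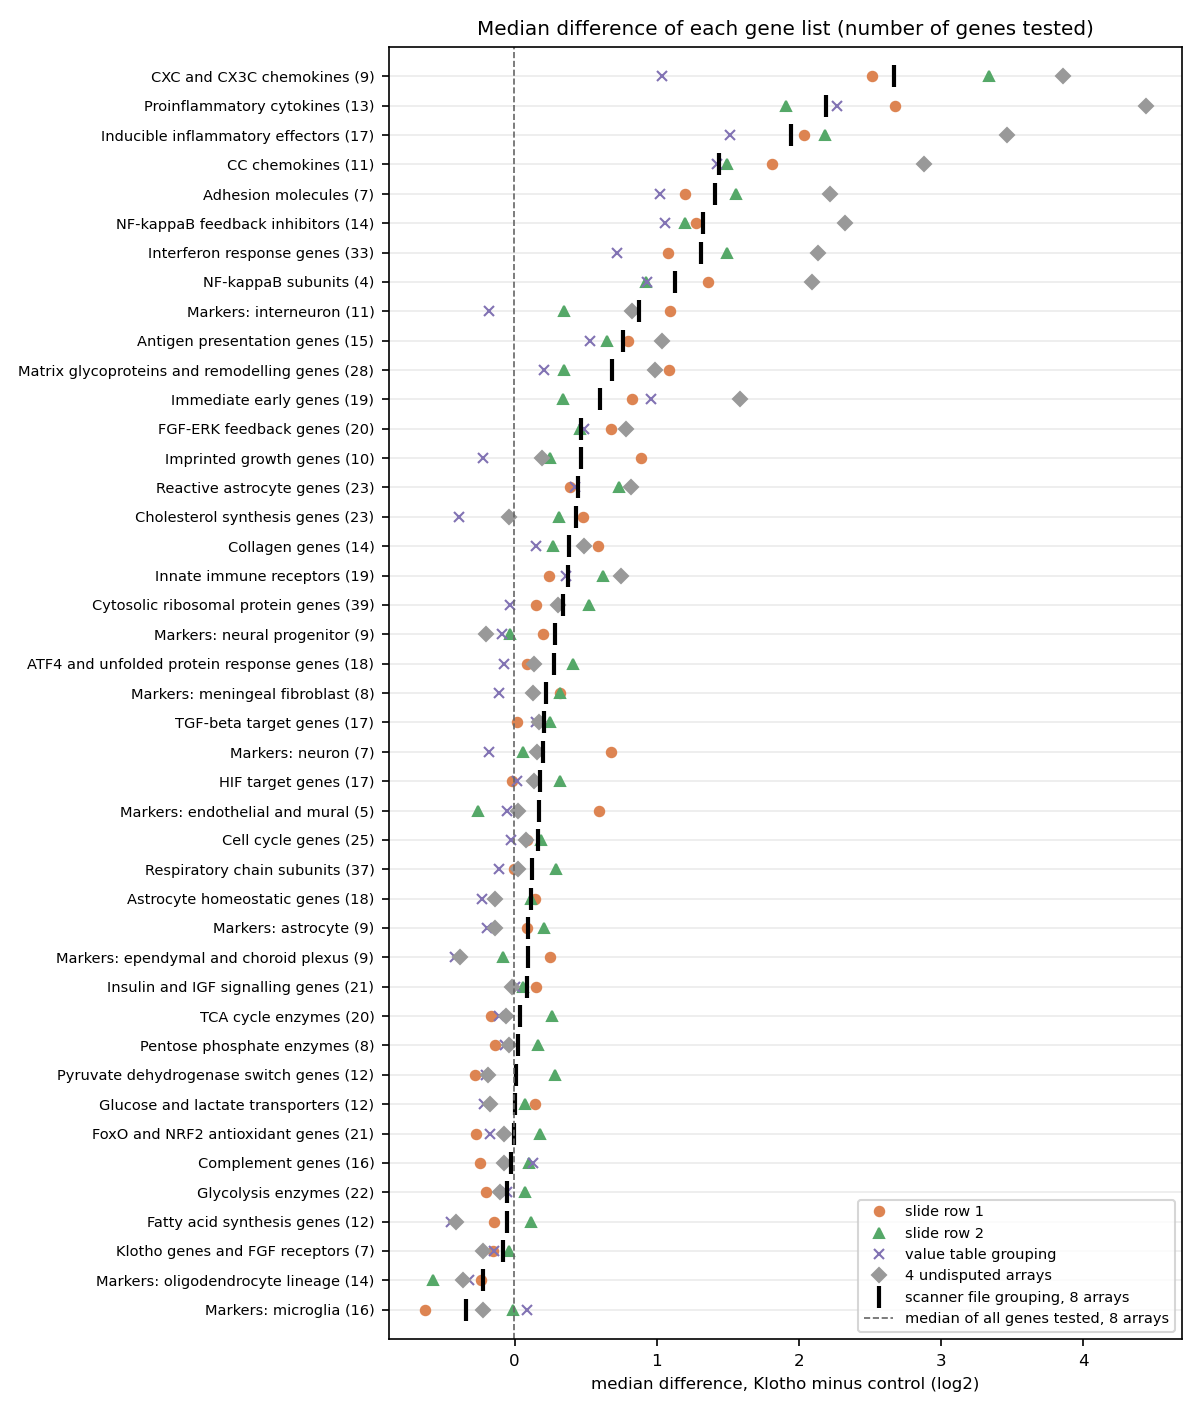
Median difference, Klotho minus control on a log2 axis, of each of the 43 gene lists (number of genes tested in parentheses) over the 8 arrays by scanner file (bar), within slide row 1 (circle), within row 2 (triangle), by value table (cross) and over the 4 undisputed arrays (diamond). The 8 inflammatory lists at the top lie to the right of the dashed median of all genes under each of these, whereas interneuron, imprinted and cholesterol lists lie left of it by value table.

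Cytokine genes were mostly on the higher side. Of 20 genes on the list of proinflammatory cytokines 13 could be tested, and 12 of these were positive and 1 negative, against 49% of all genes positive, with a median difference of 2.19 against -0.01 over all genes. An unadjusted p below 0.05 was found for 8, all higher, against 5.45% of all genes. In 4 of the 13 every Klotho array lay above every control array, an arrangement seen in 1.1% of all genes. Those 4 include Csf2, Ifnb1 and Il6, which were above background on 4, 5 and 7 of the 8 arrays. Members tested through the Klotho arrays alone could hardly be negative, and only 9 of the 13 were above background on all 8 arrays. The counts of this list therefore do not compare freely with the shares of all genes. The exception on the lower side was Il18 at -0.05, named after its value was seen. Of the 7 cytokine genes that could not be tested, Csf3, Il12b and Il1a were above background on 0 control arrays and on 3 Klotho arrays each. Il23a was so on 0 control and 2 Klotho arrays, and Il12a and Il1f9 on 0 of either. Il1rn went the other way, with 3 control and 2 Klotho arrays.

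Il6 encodes interleukin-6, a cytokine that astrocytes secrete and that drives the acute phase response. Its level was -4.28, -4.54, -6.34 and -4.76 on control arrays 1 to 4 and 2.75, 5.40, -2.17 and 5.60 on Klotho arrays 1 to 4. The groups did not overlap, although Klotho 3 lay much nearer to the controls than to the other Klotho arrays. The difference was 7.87 ± 1.48 (SE, n = 4 per group, limma, adjusted p = 0.395). It was 2.93 by value table (adjusted p = 0.841) and 10.81 over the undisputed arrays (0.00102, with only 1 residual degree of freedom). With single arrays left out it ran from 6.44 to 9.55, the highest being without Klotho 3, the lowest Klotho array (adjusted p = 0.0143). Under normexp, another background correction, the Il6 difference was 6.33. Csf2, the gene of the growth factor GM-CSF, was not well above background on any control array, with measured levels of -7.83, -6.92, -7.48 and -7.49, and lay at 0.29, 3.26, -4.06 and 3.71 on the Klotho arrays. Taking each control array at the lowest signal it could measure, the Klotho mean of Csf2 was at least 112-fold higher (adjusted p = 0.395). That bound holds for the processed intensities only. Under normexp the Csf2 difference was 5.05 in log2, which is below the bound. Ifnb1, the gene of interferon beta, stood at -7.39, -6.11, -7.54 and -7.60 on the control arrays, of which 1 was above background, and at 0.36, 2.55, -4.28 and 2.41 on the Klotho arrays. Again 3 Klotho arrays were far above the controls and Klotho 3 was between. The difference was 7.42 ± 1.29 (adjusted p = 0.395), 2.52 by value table and 9.94 over the undisputed arrays. It was taken mostly against background values, and under normexp it was 4.52. Tnf, the gene of tumour necrosis factor, overlapped between groups, since Klotho 3 at -1.96 lay below the controls 1 and 2 at -1.53 and -1.16. Its difference was 3.90 ± 1.10, with 2.27 by value table and 6.17 over the undisputed arrays. Tnfsf9, a ligand of T cell costimulation, differed by 2.19 ± 0.62.

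**Figure D2:**
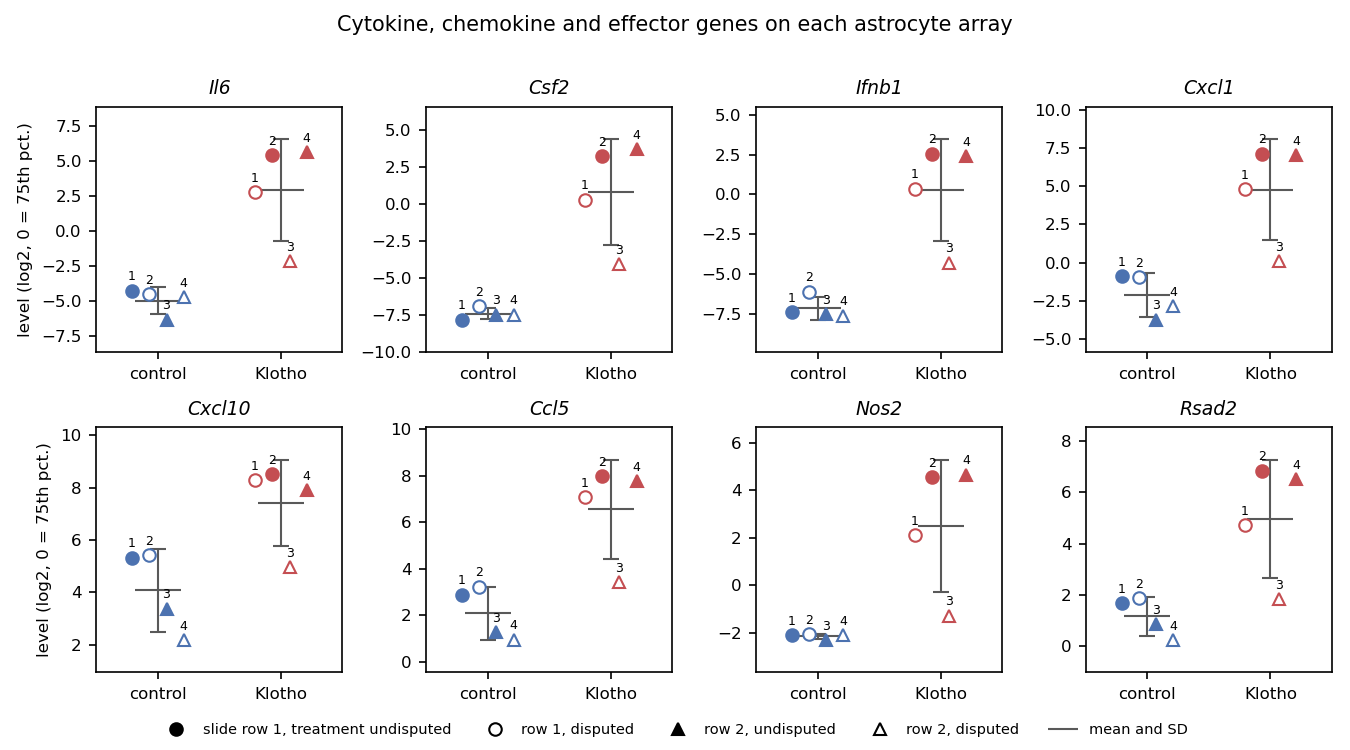
Level (log2 processed intensity relative to the array's 75th percentile) of 8 genes on each astrocyte array, with circles for slide row 1, triangles for row 2, open symbols for arrays whose treatment is disputed, numbers for the replicate, and bars for the mean and SD of 4 arrays. In each panel Klotho 2 lies above every control, Klotho 3 lies lowest of the Klotho arrays, and Il6 runs from -6.34 to 5.60.

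Among chemokines, the secreted proteins that attract leukocytes, the CXC group had the highest list median by scanner file. Of its 12 genes 9 were tested and 8 were positive, all 8 in both slide rows, with a median of 2.67 (2.51 in row 1, 3.33 in row 2). By value table the median was 1.04 and over the undisputed arrays 3.86. An unadjusted p below 0.05 was found for 7, and the 1 negative member was Cxcl14 at -0.01, named after its value was seen. Cxcl1, a neutrophil attractant, was at -0.90, -0.96, -3.74 and -2.87 on control arrays 1 to 4 and at 4.82, 7.13, 0.10 and 7.03 on Klotho arrays 1 to 4. Every Klotho array was above every control array. The difference was 6.89 ± 1.29 (adjusted p = 0.395), with 6.90 in row 1 and 6.88 in row 2, and 2.51 by value table. Cxcl10, which attracts activated T cells and is induced by interferons, was already bright on control arrays. Its levels were 5.33, 5.43, 3.38 and 2.18 on control arrays and 8.28, 8.51, 4.97 and 7.90 on Klotho arrays. Within each row both Klotho arrays exceeded both controls, but Klotho 3 in row 2 lay below controls 1 and 2 of row 1, so the groups overlapped. The difference of 3.34 ± 0.58 was 0.52 by value table. Cxcl9, a relative of Cxcl10 with the same receptor, was above background on 2 control arrays and differed by 6.27 ± 1.01 (4.25 under normexp). Cxcl2, above background on 3 control arrays, differed by 6.23 ± 1.45 and Cxcl5 by 2.67 ± 0.79. In the fit of all 16 arrays Cxcl1 and Cxcl10, both above background on all 8 astrocyte arrays, passed at an adjusted p of 0.0271 each. Their standard errors there, pooled with the neuron arrays, were 1.055 and 0.49, against 1.29 and 0.58 in the main comparison.

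The promoters of the genes that led these lists were inspected for the short sequences to which NF-kappaB and the interferon-activated factors bind. RefSeq promoter sequence of assembly GRCm38.p6 was available for 20 of the 29 named members of the cytokine, chemokine, NF-kappaB and interferon lists. The 250 bases before the start were searched on both strands for a kappaB motif, GGG then any pair of bases then TTTCC, and for the core of the interferon-stimulated response element, TTTC then any pair of bases then TTTC again. Each has 10 bases. The kappaB letters were found in 6 of the 20 promoters and the response element letters in 2. Over all 27025 genes of the table the shares were 1.65% and 3.46%. Shown are the 4 with the smallest p that held a match, each read 5′ to 3′ towards the start, in lower case with every match in capitals.
Cxcl10, chr5:92348890-92349139, minus strand: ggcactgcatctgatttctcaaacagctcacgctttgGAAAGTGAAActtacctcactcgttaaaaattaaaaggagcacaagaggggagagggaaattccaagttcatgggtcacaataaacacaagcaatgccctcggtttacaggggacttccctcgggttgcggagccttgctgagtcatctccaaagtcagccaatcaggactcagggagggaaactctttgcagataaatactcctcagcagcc
Cxcl1, chr5:90890995-90891244, plus strand: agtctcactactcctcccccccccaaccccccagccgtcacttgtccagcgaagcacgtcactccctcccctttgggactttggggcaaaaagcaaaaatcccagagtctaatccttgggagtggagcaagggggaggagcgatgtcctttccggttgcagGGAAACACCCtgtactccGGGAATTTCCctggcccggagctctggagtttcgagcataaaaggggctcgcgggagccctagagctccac
Il6, chr5:30012864-30013113, plus strand: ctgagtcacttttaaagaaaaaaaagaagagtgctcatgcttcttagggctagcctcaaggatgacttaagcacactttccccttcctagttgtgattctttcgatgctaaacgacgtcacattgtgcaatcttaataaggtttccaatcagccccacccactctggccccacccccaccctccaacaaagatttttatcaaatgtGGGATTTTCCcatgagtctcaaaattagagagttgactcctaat
Cxcl2, chr5:90903649-90903898, plus strand: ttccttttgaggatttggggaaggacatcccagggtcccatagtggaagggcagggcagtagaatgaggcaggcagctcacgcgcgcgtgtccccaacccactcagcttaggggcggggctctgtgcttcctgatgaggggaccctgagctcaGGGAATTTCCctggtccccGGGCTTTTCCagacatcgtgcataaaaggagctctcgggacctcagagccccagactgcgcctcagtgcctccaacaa
The Cxcl10 window holds the response element letters on the opposite strand, starting 213 bases before the start of the gene. Il6 holds a single kappaB match at 44 bases, and Cxcl2 has a pair at 97 and 78 bases. In Cxcl1 a match on the same strand at 71 bases stands close to another on the opposite strand at 89 bases. Among interferon response genes, 14 of 28 (50%) held the response element letters, and among CXC chemokines 3 of 9 (33.3%) held the kappaB letters. None of the 16 inducible effector promoters (0%) held the kappaB letters, and among ribosomal protein genes 0 of 29 held them and 5 of 29 (17.2%) the response element letters. A match is a description of the letters and not a binding site, and no match says only that these letters are not in this window.

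CC chemokines followed the CXC group at a smaller size by scanner file, with a median of 1.44 against 2.67. The order was reversed by value table, with 1.42 for CC and 1.04 for CXC. Over the undisputed arrays the medians were 2.88 and 3.86. Of 15 genes 11 were tested, 10 were positive and 1 negative (Ccl27a at -0.18, named after its value was seen), and 6 had an unadjusted p below 0.05. Ccl5, or RANTES, a T cell and monocyte attractant, was at 2.90, 3.23, 1.27 and 0.96 on control arrays 1 to 4 and at 7.07, 7.99, 3.43 and 7.76 on Klotho arrays 1 to 4. The groups did not overlap, with Klotho 3 only just above control 2. The difference was 4.47 ± 0.79 (adjusted p = 0.395), 4.47 in row 1 and 4.48 in row 2, and 1.32 by value table. Ccl2, the main monocyte attractant of astrocytes, did overlap, since Klotho 3 at 3.46 was below controls 1 and 2 at 4.56 and 4.91. Its difference was 4.18 ± 0.91, that of Ccl7 5.05 ± 1.29 and that of Ccl4 2.88 ± 0.80. Ccl12 differed by 1.38 ± 0.38. Ccl5 and Ccl2 passed in the fit of all 16 arrays (adjusted p = 0.0269 and 0.0394), which pools their spread with that of the neuron arrays. There their standard errors were 0.61 and 0.71, against 0.79 and 0.91 in the main comparison, which they did not pass.

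Receptors that sense these signals and adhesion molecules that hold leukocytes were on the higher side as well. All 7 adhesion genes tested were positive in both rows, with a median of 1.41 (1.03 by value table), and 6 had an unadjusted p below 0.05. Icam1, a ligand of leukocyte integrins, was at -0.50, -0.41, -1.26 and -0.98 on control arrays and at 1.04, 3.05, -1.15 and 2.02 on Klotho arrays. The groups overlapped only through Klotho 3, and the difference was 2.03 ± 0.69 (adjusted p = 0.417), 1.39 by value table and 3.42 over the undisputed arrays. The selectin gene Selp differed by 2.35 ± 0.83 and Madcam1, an adhesion gene of mucosal vessels, by 1.76 ± 0.56. Innate immune receptors had a lower median of 0.38, with 16 of 19 positive and 5 at an unadjusted p below 0.05. The kinase gene Ripk2, which relays bacterial peptide sensing, differed by 2.81 ± 0.76 and Tlr2, a receptor for bacterial lipoproteins, by 2.74 ± 0.82. The double-stranded RNA sensors Tlr3, Ifih1 and Ddx58 differed by 1.14 ± 0.26, 1.18 ± 0.37 and 0.79 ± 0.23.

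The genes of NF-kappaB subunits had a median of 1.12 (0.93 by value table). All 4 tested were positive, each with an unadjusted p below 0.05, and the fifth, Rel, was above background on 0 of the 8 arrays. Nfkb1, which encodes the p50 precursor, was at 0.12, 0.16, -0.22 and 0.17 on control arrays and at 0.81, 2.30, 0.24 and 1.73 on Klotho arrays. Klotho 3 lay only just above the controls. The difference was 1.21 ± 0.40 for Nfkb1, 1.14 ± 0.48 for Relb, 1.11 ± 0.48 for Nfkb2 and 0.89 ± 0.31 for Rela. Of 14 inhibitor genes 12 were positive, with a median of 1.33 (1.05 by value table), and 5 had an unadjusted p below 0.05. Tnfaip3, the ubiquitin-editing enzyme A20, was at 0.80, 0.88, -0.30 and -0.10 on control arrays and at 3.71, 6.23, 0.41 and 5.42 on Klotho arrays. The values of the groups overlapped through Klotho 3. Its difference was 3.62 ± 1.01, and that of Nfkbia, which encodes IkappaB-alpha, 2.00 ± 0.57 (adjusted p = 0.395 each). The members on the lower side, named after their values were seen, were Traf1 at -0.24 and Cyld at -0.36.

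Inducible effectors, the enzymes and secreted proteins made by activated glia, were positive in 16 of 17 genes with a median of 1.94, and 12 had an unadjusted p below 0.05. Nos2, the inducible nitric oxide synthase, was at -2.10, -2.07, -2.30 and -2.09 on control arrays 1 to 4 and at 2.10, 4.55, -1.27 and 4.67 on Klotho arrays 1 to 4. The 4 controls lay close together and every Klotho array was above them. The difference was 4.65 ± 1.16 (adjusted p = 0.395), 2.15 by value table and 6.81 over the undisputed arrays. Ptgs2, or cyclooxygenase-2, which makes prostaglandins, differed by 4.60 ± 1.42. Mmp13, a collagenase, differed by 3.31 ± 0.88 and Acod1, which makes itaconate, by 3.71 ± 1.10. Of the 3 effector genes not tested, the gelatinase gene Mmp9 was above background on 0 control and 3 Klotho arrays. Mmp10 was so on 0 and 1, and Saa2 on 1 and 1.

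Interferon response genes were on the higher side in nearly every member. Of 33 genes tested 32 were positive, the same 32 in both slide rows, where 20.8% of all genes were positive in both. An unadjusted p below 0.05 was found for 29. The list median was 1.31 by scanner file, 0.72 by value table and 2.13 over the undisputed arrays. Rsad2, or viperin, an antiviral enzyme, was at 1.68, 1.88, 0.86 and 0.25 on control arrays 1 to 4 and at 4.71, 6.84, 1.83 and 6.51 on Klotho arrays 1 to 4. Klotho 3 fell within the control range and the other 3 Klotho arrays were above it. The difference was 3.80 ± 0.92 (adjusted p = 0.395). Irf1, a transcription factor of the interferon gamma response, was at 3.83, 4.09, 2.73 and 2.82 on control arrays and at 5.86, 7.34, 3.30 and 5.91 on Klotho arrays, with the same single overlap. It differed by 2.24 ± 0.56, the antiviral sensor gene Oasl1 by 2.93 ± 0.78 and Iigp1, a GTPase that attacks vacuoles of parasites, by 1.89 ± 0.50. Trim25, an E3 ligase of RNA sensing, differed by 0.76 ± 0.18. The negative member was Irf8 at -0.32, a factor of the macrophage lineage, named after its value was seen. Antigen presentation genes were positive in 15 of 15 with a median of 0.76, and 8 had an unadjusted p below 0.05. Tap1, a peptide transporter of class I presentation, differed by 1.24 ± 0.38.

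The 8 arrays did not split evenly by treatment in these lists. The mean level of the CXC list was 0.18, 0.19, -1.75 and -1.80 on control arrays 1 to 4 and 2.60, 3.99, -0.14 and 3.62 on Klotho arrays 1 to 4. Klotho 3 was thus lower than the row 1 controls and higher than the row 2 controls, which share its slide row. The cytokine list had means of -2.42, -2.16, -3.28 and -2.77 on control arrays and 0.39, 2.54, -2.14 and 2.14 on Klotho arrays, and the interferon list 2.84, 3.002, 1.58 and 1.38 against 3.62, 4.74, 2.08 and 4.08. In each of these lists the 2 undisputed Klotho arrays were the highest of the 8. Microglia markers did not follow this order, with means of 2.56, 2.74, 2.30 and 2.80 on control arrays and 2.38, 1.93, 2.46 and 2.58 on Klotho arrays. Of the 16 microglia markers 12 were lower in the Klotho mean, with a median of -0.34, 0 had an unadjusted p below 0.05 in either direction, and the value table median was 0.08. Cx3cr1, the fractalkine receptor of microglia, was lowest on Klotho 2 at 3.04 and lay between 3.76 and 4.27 on the other 7 arrays, and C1qa differed by -0.47 ± 0.22. The part of microglia in the inflammatory differences was not tested.

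Reactive astrocyte genes, which mark the response of astrocytes to injury or inflammation, were mixed. Of 23 tested 18 were positive, with a median of 0.45 (0.43 by value table), 7 had an unadjusted p below 0.05 on the higher side and 1 on the lower. Ptx3, a pattern recognition protein induced by NF-kappaB, differed by 4.51 ± 1.19. Amigo2, an adhesion gene used as a marker of the inflammatory type of reactive astrocyte, was at -3.87, -3.89, -3.85 and -4.19 on control arrays and at -2.53, -1.78, -3.43 and -2.14 on Klotho arrays. The groups did not overlap, and the difference of 1.48 ± 0.31 passed in the fit of all 16 arrays (adjusted p = 0.0317) but not in the main comparison (0.395). The member on the lower side, named after its value was seen, was the protease inhibitor gene Serpina3n at -1.32. Complement genes had a median of -0.03, with Cfb, the factor B of the alternative pathway, at 3.71 ± 1.09 and 10 of 16 negative. By value table the complement median was 0.13, and 12 of 16 were positive. C1qa and C1qc, made by microglia, were among the negative members by scanner file at -0.47 ± 0.22 and -0.35 ± 0.20, but were at 0.09 and 0.12 by value table.

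Extracellular matrix genes were mostly positive by scanner file. Of 14 collagen genes 14 were positive, with a median of 0.38, 0.58 in row 1 and 0.27 in row 2, and 6 had an unadjusted p below 0.05. In the value table grouping, 9 of 14 were positive with a median of 0.15. Col1a2, a chain of type I collagen, was at 2.38, 2.12, 2.65 and 2.74 on control arrays 1 to 4 and at 4.37, 3.94, 2.99 and 3.41 on Klotho arrays 1 to 4. All Klotho arrays were above all controls, with a mean difference of 1.90 in row 1 and 0.50 in row 2. The difference was 1.20 ± 0.30 (adjusted p = 0.395), and by value table it was -0.05. Col18a1, the source of endostatin, differed by 1.03 ± 0.25 and by less than 0.01 by value table. Matrix glycoproteins and remodelling genes were positive in 27 of 28 with a median of 0.68 (0.20 by value table), and 16 had an unadjusted p below 0.05. Postn, or periostin, differed by 1.28 ± 0.33 and by 0.01 by value table. The aggrecanase gene Adamts4 behaved like the inflammatory genes, with a difference of 3.07 ± 0.95 by scanner file and 1.83 by value table.

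Imprinted growth genes and interneuron markers had positive medians by scanner file that were not kept by value table. Mest, an imprinted gene active in embryonic tissue, was at 2.27, 2.35, 3.09 and 2.19 on control arrays 1 to 4 and at 5.16, 4.86, 3.75 and 3.97 on Klotho arrays 1 to 4. The groups did not overlap, and the row 1 difference of 2.70 was larger than the row 2 difference of 1.22. The difference was 1.96 ± 0.34 (adjusted p = 0.395, and 0.0464 in the fit of all 16 arrays), and by value table it was -0.23. Dlk1, a Notch-related inhibitor of differentiation, was at 3.31, 3.14, 3.28 and 3.36 on control arrays and at 5.11, 4.49, 3.83 and 4.00 on Klotho arrays. Again no array crossed, with a difference of 1.09 ± 0.24 and -0.13 by value table. Of 10 imprinted genes tested 8 were positive by scanner file and 2 by value table, where 40.9% of all genes were positive, and the medians were 0.46 and -0.22. Over the undisputed arrays 6 were positive, with a median of 0.19. Among 11 interneuron markers tested, 7 of them above background on all 8 arrays, 9 were positive by scanner file, 5 by value table and 9 over the undisputed arrays, where 43.5% of all genes were positive. Their medians were 0.87, -0.18 and 0.83, and the value table median was 0.03 over the markers that could be tested in that grouping. Slc32a1, the vesicular GABA transporter, was at -7.24, -6.69, -3.68 and -5.45 on control arrays, of which 2 were above background, and at -2.46, -3.02, -3.14 and -4.52 on Klotho arrays. Its groups overlapped through control 3, and the difference was 2.48 ± 0.75. Npy, a neuropeptide gene, differed by 0.88 ± 0.18 and the homeobox gene Dlx1 by 0.87 ± 0.20, both with a value table difference of 0.06 or less. The interneuron markers Sst, Vip and Calb2 were above background on 0 of the 8 arrays.

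**Figure D3:**
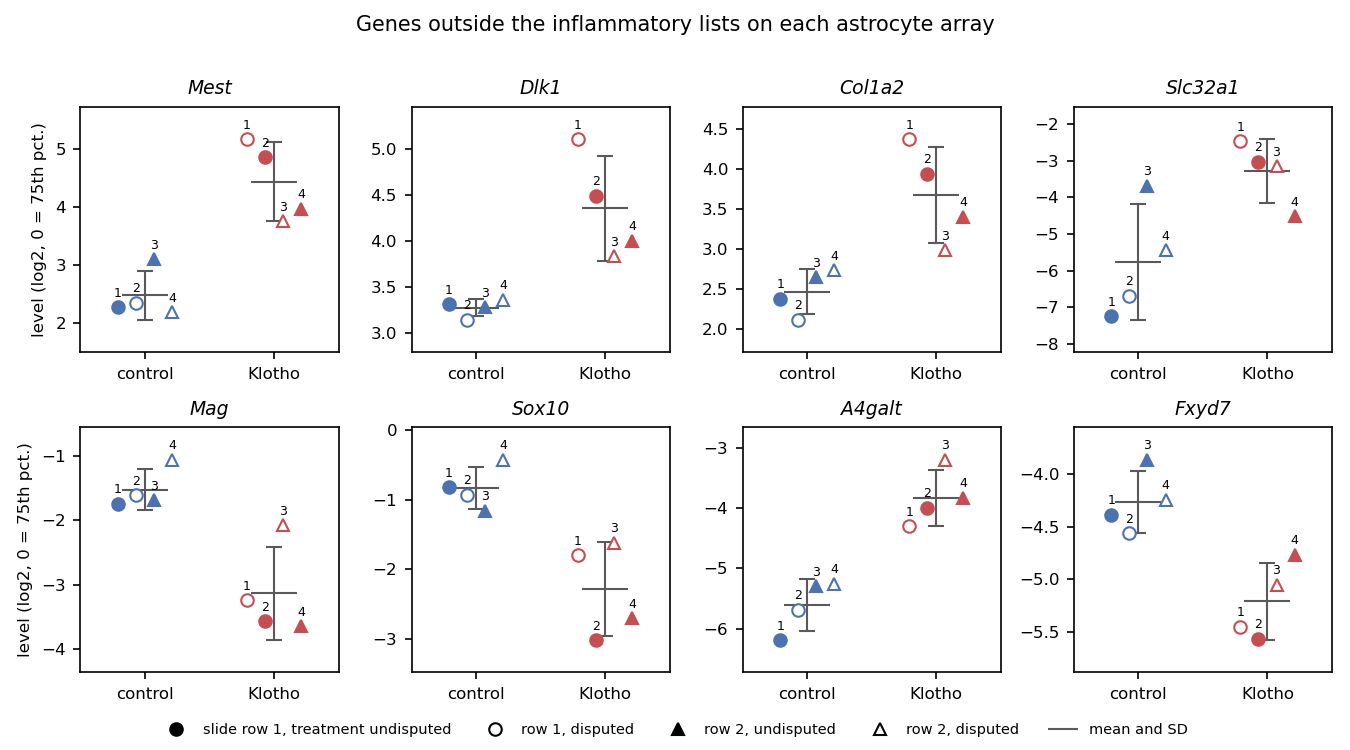
Level (log2 processed intensity relative to the array's 75th percentile) of 8 genes outside the inflammatory lists on each astrocyte array, with symbols as row (circle 1, triangle 2), open for a disputed treatment, numbered by replicate, and bars for the mean and SD of 4 arrays. Mest, Dlk1 and Col1a2 lie higher on all 4 Klotho arrays and Mag, Sox10 and Fxyd7 lower, and within the Klotho group the disputed arrays 1 and 3 do not stand apart from 2 and 4 in Mest (3.75 to 5.16).

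Oligodendrocyte lineage markers were mostly on the lower side. Of 14 tested 10 were negative, with a median of -0.22 (-0.32 by value table), and 5 had an unadjusted p below 0.05, all lower, against 5.65% of all genes. Mag, a myelin adhesion gene, was at -1.74, -1.61, -1.69 and -1.06 on control arrays 1 to 4 and at -3.24, -3.57, -2.08 and -3.64 on Klotho arrays 1 to 4. Sox10, the transcription factor of the lineage, was at -0.82, -0.93, -1.16 and -0.43 on control arrays and at -1.80, -3.01, -1.62 and -2.70 on Klotho arrays. Neither gene overlapped between groups, as in 1.44% of all genes. Mag differed by -1.61 ± 0.33 and Sox10 by -1.45 ± 0.34 (adjusted p = 0.395 each), and by value table the differences were -0.28 and -0.42. Gpr17, a receptor of oligodendrocyte precursors, differed by -2.64 ± 0.93, but Klotho 3 at 0.13 lay among the controls. The value was -1.82 by value table and -4.45 over the undisputed arrays. Cldn11 and Pdgfra differed by -0.995 ± 0.39 and -0.72 ± 0.29. Olig2, a transcription factor of the lineage named after its value was seen, was at -0.06.

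The genes of the Klotho receptor complex were at or below background or did not pass the test. Kl itself was well above background on 0 of the 8 astrocyte arrays and Klb, its relative, on 1. Fgfr1, a receptor through which FGF23 and Klotho signal, had levels of 5.95 to 6.50 on control arrays and 6.23 to 6.60 on Klotho arrays. Fgfr1 differed by 0.20 ± 0.17, Fgfr2 by -0.08 ± 0.14, Fgfr3 by -0.36 ± 0.23 and Fgfr4 by 0.32 ± 0.34 (adjusted p from 0.559 to 0.838). Feedback genes of FGF and ERK signalling were positive in 16 of 20, with a median of 0.47 (0.48 by value table), and 7 had an unadjusted p below 0.05. Dusp5, a nuclear ERK phosphatase, was at -5.89, -5.88, -6.37 and -4.25 on control arrays, of which 2 were above background, and at -3.36, -3.38, -3.55 and -3.24 on Klotho arrays. All 4 Klotho arrays lay close together and above the controls. The difference was 2.21 ± 0.41 (adjusted p = 0.395), and it was 1.10 under normexp and 0.60 by value table. Dusp6, the ERK phosphatase most used as a readout of FGF signalling, differed by 0.42 ± 0.17, and Spry1, an inhibitor of receptor tyrosine kinases, by 0.51 ± 0.20. Immediate early genes, which are induced within minutes of stimulation, were positive in 16 of 19 with a median of 0.60, or 0.28 to 0.88 with single arrays left out. Their median was higher by value table, at 0.96, and Egr2 differed by 3.14 ± 1.10 by scanner file and 2.42 by value table. Nr4a2, an orphan nuclear receptor, was lower on all 4 Klotho arrays, at -2.57, -2.46, -2.09 and -1.99 against -0.97, -1.70, -1.76 and -1.83 in controls. Its difference was -0.71 ± 0.24 (adjusted p = 0.417).

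Genes of glucose use, the theme of the series title, differed little in either direction. Of 22 glycolysis enzymes 9 were positive and 13 negative, with a median of -0.06, and in the value table grouping 10 were positive with a median of -0.05. Pfkfb3 and Pfkfb4, isoforms of the enzyme that makes the activator of phosphofructokinase, went opposite ways. Pfkfb3 was at 2.75, 2.95, 3.24 and 2.99 on control arrays and at 3.10, 3.67, 3.32 and 3.60 on Klotho arrays, a difference of 0.44 ± 0.18 (adjusted p = 0.440) that was 0.20 by value table. Pfkfb4 was at 1.11, 1.17, 1.68 and 1.44 on control arrays and at 0.74, 0.48, 1.45 and 1.01 on Klotho arrays, a difference of -0.43 ± 0.17 (adjusted p = 0.434) that was -0.22 by value table. Both sets of values overlapped. Eno2 differed by 0.60 ± 0.39 and Pfkl by -0.27 ± 0.18. The lactate dehydrogenase gene Ldha, shown because it makes lactate, was at 6.43, 6.45, 5.33 and 5.43 on control arrays and at 6.50, 6.33, 5.66 and 6.00 on Klotho arrays, so that slide row separated the arrays more than treatment did. Its difference was 0.21 ± 0.17 (adjusted p = 0.632).

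Transporters of glucose and lactate were evenly split, with 6 of 12 positive and a median of 0.00. Slc2a6, a glucose transporter of activated myeloid cells, was at 2.70, 3.08, 1.84 and 2.25 on control arrays and at 3.65, 5.40, 1.99 and 4.80 on Klotho arrays, again with Klotho 3 among the controls. It differed by 1.49 ± 0.60 (adjusted p = 0.435). Slc16a3, a lactate exporter, differed by 0.14 ± 0.20 and Slc16a4 by 0.61 ± 0.38. Genes that set the entry of pyruvate into mitochondria had 7 of 12 positive and a median of 0.01, with Pdk4 and Pdk2, kinases that close this entry, at -0.24 ± 0.19 and -0.25 ± 0.22. Pentose phosphate enzymes had a median of 0.02, and G6pdx, the first enzyme of that path, differed by -0.61 ± 0.30, with -1.28 in row 1 and 0.06 in row 2. Enzymes of the citric acid cycle had 11 of 20 positive and a median of 0.04, which was -0.17 in row 1 and 0.26 in row 2.

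Lipid synthesis depended on which grouping was used. Genes of cholesterol synthesis were positive in 18 of 23 by scanner file, with a median of 0.43, and in 1 of 23 by value table, with a median of -0.39. Over the undisputed arrays 11 were positive and the median was -0.04. Idi1 and Fdps, enzymes of the isoprenoid steps of this pathway, differed by 0.77 ± 0.23 and 0.71 ± 0.20 by scanner file (adjusted p = 0.395 each), and both were negative by value table (-0.19 and -0.09). Fatty acid synthesis genes were positive in 4 of 12 with a median of -0.06 by scanner file, and in 0 of 12 with a median of -0.45 by value table. Fads1, a desaturase, differed by -0.24 ± 0.33 and -0.70 in these groupings.

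Ribosomal protein genes were higher by a small amount with no exception by scanner file. All 39 tested were positive, with a median of 0.34, 0.15 in row 1 and 0.52 in row 2, and 12 had an unadjusted p below 0.05. In 0 of the 39 did the 4 Klotho values lie above the 4 controls. The list mean was 6.56, 6.53, 5.21 and 5.37 on control arrays and 6.90, 6.46, 5.74 and 5.90 on Klotho arrays, so that it followed slide row more than treatment. The median by value table was -0.03, with 14 of 39 positive, and under quantile normalization it was 0.11. Respiratory chain subunits were positive in 32 of 37, with a median of 0.12, which was -0.01 in row 1 and 0.29 in row 2, -0.11 by value table and -0.03 under quantile normalization. Chaperones and amino acid enzymes of the unfolded protein response had a median of 0.28 with 14 of 18 positive. Hspa5, the main chaperone of the endoplasmic reticulum, was at 6.27, 6.32, 6.65 and 6.34 on control arrays and at 7.01, 7.12, 6.88 and 7.03 on Klotho arrays. Its groups did not overlap and the difference was 0.62 ± 0.15 (adjusted p = 0.395), with 0.00 by value table. Cell cycle genes had a median of 0.17 and targets of HIF, the hypoxia factor, 0.18.

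Genes of astrocyte function were close to the middle of all genes. Homeostatic genes for the uptake of glutamate and potassium were positive in 13 of 18, with a median of 0.12 by scanner file and -0.23 by value table. Aqp4, the water channel of astrocyte endfeet, was the member with the smallest p in the astrocyte marker list. It was at 4.91, 5.00, 4.89 and 3.80 on control arrays and at 5.58, 6.30, 5.36 and 5.07 on Klotho arrays. Every Klotho array was above every control array, and the difference was 0.92 ± 0.27 (adjusted p = 0.395), with -0.14 by value table. Insulin and IGF signalling genes had a median of 0.09, with the binding protein genes Igfbp3 at 0.89 ± 0.29 and Igfbp2 at 0.64 ± 0.21 and the FoxO factor gene Foxo1 at -0.41 ± 0.18. Antioxidant genes under FoxO and NRF2 had a median of -0.01, with 10 of 21 positive.

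Outside the lists, the genes with the smallest p among those measured on all 8 arrays were of varied function. On the higher side they included Crh, the gene of corticotropin-releasing hormone, Calca, which encodes calcitonin and CGRP, and the cyclophilin gene Ppic. Crh was at -4.83, -4.87, -5.14 and -5.04 on control arrays and at -2.73, -3.26, -4.21 and -3.97 on Klotho arrays, a difference of 1.43 ± 0.22 without overlap, and -0.06 by value table. Calca differed by 1.49 ± 0.24 and Ppic by 1.18 ± 0.21 (adjusted p = 0.395 each). The further genes on that side were Aard (0.94 ± 0.17), Glycam1 (1.15 ± 0.22), Itm2a (0.99 ± 0.19), Ndufab1 (0.86 ± 0.16), Pcolce2 (1.64 ± 0.30), Rnase1 (1.57 ± 0.30) and Syt13 (1.60 ± 0.29). On the lower side, besides Mag and Sox10, they included Vamp1, a synaptic vesicle protein gene, at -0.84 ± 0.17, the histone gene H3c11 at -0.66 ± 0.13, Cfap100 of cilia at -1.15 ± 0.26 and the lymphatic growth factor gene Vegfd at -0.84 ± 0.20. H3c11 did not overlap, with controls from -3.08 to -2.71 and Klotho arrays from -3.79 to -3.36. The kinase gene Brsk2, the actin nucleator gene Spire2 and Rab33a differed by -0.76 ± 0.18, -0.97 ± 0.22 and -0.59 ± 0.14. Of genes not above background on any Klotho array, 9630013A20Rik was at least 1.61-fold lower, Gabre, a GABA receptor subunit, at least 1.60-fold and Pcdh15 at least 1.59-fold. These bounds hold for the processed intensities only. Under normexp the log2 differences were -0.39, -0.14 and -0.20, each smaller in size than its bound.

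Whether the difference was the same in both slide rows was tested with an interaction term. Of 23559 genes 1 was called, a probe with no gene symbol (0.00424%), whose difference in row 2 minus that in row 1 was -3.93 (limma, adjusted p = 0.0260). At an unadjusted p below 0.05, 4906 genes (20.8%) differed between rows, so a single difference for both rows is a coarse summary of many genes. The list medians in rows 1 and 2 were 2.68 and 1.91 for cytokines, 1.81 and 1.49 for CC chemokines and 1.08 and 1.49 for interferon genes. They were 1.09 and 0.34 for interneuron markers, 1.08 and 0.35 for matrix glycoproteins and 0.68 and 0.06 for neuron markers. The difference between rows was not tested for lists. Within the neuron list Dcx, a gene of migrating neurons, differed by 3.73 in row 1 and 0.06 in row 2. Its levels on control arrays 1 to 4 were -5.95, -6.91, -3.12 and -3.92. Dcx was not above background on all 8 arrays, so its row 1 difference may rest in part on dim control values. Over both rows it differed by 1.89, and by 0.90 under normexp.

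**Figure D4:**
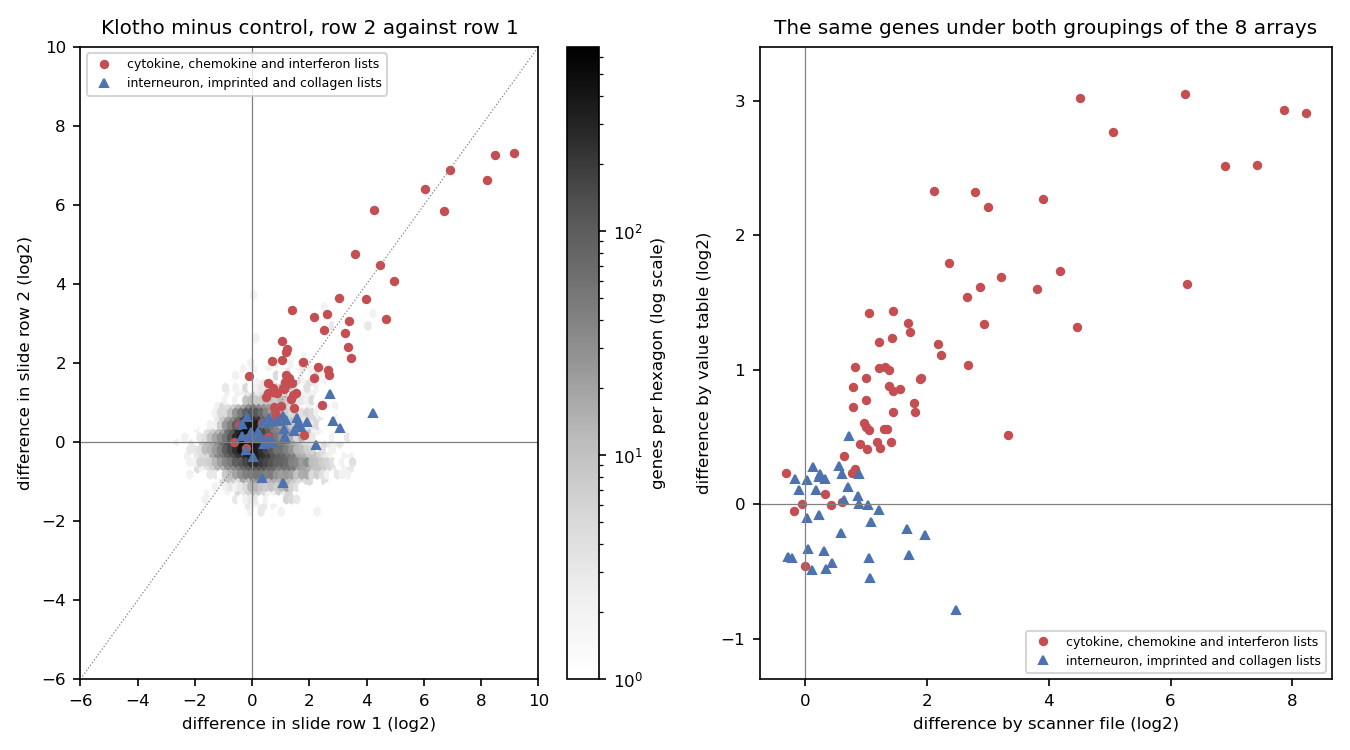
Left, difference (Klotho minus control, log2) in slide row 2 against that in row 1 for 23559 genes (grey, genes per hexagon on a log scale), with members of the cytokine, chemokine and interferon lists (circles) and of the interneuron, imprinted and collagen lists (triangles). Right, the difference of the same members by value table against that by scanner file, which regroup the same 8 arrays. Cxcl1 of the first set, measured on all 8 arrays, lies at 6.89 by scanner file and 2.51 by value table, and the second set has value table medians from -0.22 to 0.15.

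The difference in astrocytes was set against that in neurons with a second interaction term over all 16 arrays. All 4 neuron controls lay in array row 1 and all 4 neuron Klotho arrays in row 2, so in neurons treatment and row cannot be told apart. The 51 calls became 20 by value table and 0 when only genes above background on all arrays were tested. Of 26107 genes 37 (0.142%) had a higher and 14 (0.0536%) a lower difference in astrocytes. Ahsg, Alb, Fgg and Serpina3k, genes of blood proteins made in liver, were called on the higher side. They were above background on 0 astrocyte arrays, so their test rests on the neuron values. Ambp and Hp, on 8 astrocyte arrays, had neuron means of -2.15 and -2.18 in controls and -6.16 and -5.02 with Klotho. Their astrocyte means were -2.47 and -1.22 in controls and -2.52 and -1.52 with Klotho. A higher call can thus come from lower neuron values without a higher level in astrocytes. A4galt, a glycosyltransferase of globoside synthesis, was above background on 6 astrocyte arrays and differed by 1.77 ± 0.22 there in the fit of all 16 arrays (adjusted p = 0.0269), which was 1.83 more than in neurons (adjusted p = 0.0320), and it was 0.05 by value table. Fxyd7, a regulator of the sodium pump, was at -4.39, -4.56, -3.87 and -4.25 on control arrays and at -5.45, -5.56, -5.05 and -4.77 on Klotho arrays. All Klotho arrays were below all controls, the astrocyte difference was -0.94, and its excess over the neuron difference was -1.45 (adjusted p = 0.0105). The astrocyte difference of Fxyd7 was -0.09 by value table, -1.04 over the undisputed arrays and -0.18 under normexp. Atp6v1g2, a subunit of the vesicular proton pump, had an interaction of -1.38 (adjusted p = 0.0463), with an astrocyte difference of -0.96 that was 0.09 by value table and -0.87 over the undisputed arrays. Of the tested members of the 43 lists, 0 passed this test. Ccl5 had an interaction of 4.62 (adjusted p = 0.0559), Cxcl1 7.94 (0.0563), Cxcl10 3.48 (0.0790) and Il6 7.47 (0.110), with neuron differences of -0.15, -1.05, -0.15 and 0.40.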

How the data were processed

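RNA of 8 astrocyte and 8 neuron samples was labelled with Cy3 and hybridised to Agilent mouse expression arrays of design 028005 (probe build NCBI37). Per the file headers, the authors scanned and extracted each array with Feature Extraction 12.0.3.1. Per the file headers, that software subtracted background and removed spatial trends from each array's processed intensity, without scaling arrays to each other. The deposited files also hold median intensities and, for every spot, flags of 0 or 1 on detection, saturation and outlying pixels. A deposited value table holds a score, the log2 processed intensity with its mean and spread removed in each column; its direction is that of the intensity. It was used to check which array stands behind each sample. Other columns of per-sample values numbered 0.

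Control spots and spots flagged as outliers were left out, and each array's 75th percentile was subtracted from its log2 processed intensities. Spots of a probe were averaged, and a symbol with several probes was represented by its brightest probe. Of 55681 probes, 28331 (50.9%) were named through RefSeq accessions, and the others keep the probe identifier. A unit was tested when it was well above background on every array of at least 1 group, which left 23559. limma 3.58.1 in R 4.3.3 fitted treatment with array row as a term, and p-values were adjusted by Benjamini-Hochberg over all units at a threshold of 0.05. The same procedure was tested on simulated data. Tables were built with pandas 2.3.3 and numpy 2.4.6 in Python 3.11.15, and plots were drawn with matplotlib 3.10.9. Fold bounds set each dim array at the higher of the probe's own signal and the lowest signal among probes well above background.

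The gene lists, the arrays and the tests were chosen with earlier results of these data known. Named genes are the Klotho and FGF receptor genes, up to 15 symbols per direction with the smallest p and the same sign in both rows, up to 5 members per list with the smallest p, up to 5 symbols per direction with the largest bound or the smallest interaction p, and called genes. Genes named outside this rule are marked in the text as named after their values were seen. Ldha and the list members that were not tested, other than Kl and Klb, were also chosen that way. Same-numbered arrays of the astrocyte groups deviated together, with correlations of 0.724, 0.181, 0.527 and 0.622, but replicate number follows array row, and within rows the correlations were 0.030 to 0.297. Promoters are RefSeq windows of GRCm38.p6, 250 bases before the start. Alternatives were other scalings, background corrections, filters, groupings and sets of arrays. Some genes that the rule names are not reported here.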

Additional observations from a re-analysis of the deposited data

Results flagged for a closer look

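Among 150 groups of 4 arrays checked for an array that stands apart, 4 had one by Dixon's test at the 95% level. That is fewer than the 1 in 20 that chance alone gives, so these 4 cannot be told from chance. The mean level of FGF and ERK feedback genes was -1.0082 on control 3, against -0.53 to -0.46 on the other controls. Collagen genes had a mean level of 0.85958 on Klotho 3, against 1.07 to 1.09 on the other Klotho arrays. TGF-beta target genes stood at 2.7431 on Klotho 3 and at 2.99 to 3.02 on the others. Pcolce2, which enhances procollagen processing, was at -2.3896 on Klotho 3 and at -0.83 to -0.64 on the others. Klotho 3 is a disputed array, and the part of its treatment in these values was not tested.

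Tests of a difference between differences called 1 gene between rows and 51 between cell types. Of the 51, Fxyd7, A4galt and Atp6v1g2 were picked by detection in both cell types and by a limit on size. That limit left out larger differences, such as 3.96 for Ambp, 2.25 for Itih4, 2.54 for Hp and 3.22 for Kng1. The tests themselves did not single out the genes picked. The Klotho effect at probe A_55_P2028852, which has no gene symbol, was -3.9323 in row 2 minus row 1 (limma, adjusted p = 0.0260). For effects in astrocytes minus neurons the values were -1.4494 for Fxyd7 (adjusted p = 0.0105), 1.8251 for A4galt (0.0320) and -1.3766 for Atp6v1g2 (0.0463). All neuron controls lay in array row 1 and all neuron Klotho arrays in row 2, so treatment and row cannot be told apart in neurons.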

How the results depend on the processing

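The count of 0 genes called between Klotho and control became 46 in the fit of all 16 arrays, 310 over the 4 undisputed arrays and 674 without the 2 disputed Klotho arrays; the last 2 settings were chosen after the data were seen. Leaving out 1 array gave 0 to 50, with 50 without Klotho 3 and 1 without control 3 or control 4. It stayed 0 under the other alternatives, which were no row term, row with column, each row alone, a mean-variance trend, median scaling, quantile normalization, normexp, no filter, a filter on all 8 arrays, every probe, and the value table's grouping or values. The replicate block in place of array row also gave 0, with 2234 genes at an unadjusted p below 0.05 against 2617. For the difference between rows, 1 call became 4 under median scaling, 471 under normexp, and 0 under quantile normalization, without a filter and with a filter on all 8 arrays. Leaving out 1 array there gave 0 to 3698, with 3698 without Klotho 1, 20 without control 3, 14 without control 4, 4 without Klotho 2 and 0 without each of the others. For astrocytes against neurons, 51 calls became 23 without a row term, 12 under normexp, 0 with a filter on all arrays and 20 by value table, and the replicate block paired by number gave 28. Leaving out 1 array gave 23 to 271, with 271 without astrocyte Klotho 3, 84 without astrocyte control 3 and 23 without neuron Klotho 3. The other leave-one-out counts more than 1.5 times below 51 were 27 and 28 without astrocyte controls 1 and 2, 31 without astrocyte Klotho 1, 24 and 26 without neuron controls 3 and 4, and 28, 32 and 33 without neuron Klotho 1, 2 and 4. The cause of these shifts was not tested. Of 236 named genes tested by value table, 91 changed sign there. Probes not above background in a group give only a bound there, and 4 arrays per group limit the precision; by scanner file, each astrocyte treatment lies on 1 slide.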
